A study of Mus musculus with 24 samples.

Results

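The genes described here are antiviral effector genes of the interferon response. Many of their products act on viral entry, replication or release in the cell that makes them. They were chosen as a list of 55 gene symbols that were matched exactly to the gene column of the expression tables, and all 55 of the 24411 genes in those tables were found. Each member had a value in every library of 7 conditions and reached a mean of at least 10 normalized counts in at least 1 table.

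The data are bulk RNA-seq of purified mouse glia grown in serum-free medium, from wild-type (WT) mice and from SOD1G93A mice, which carry a mutant human SOD1 transgene and are a model of amyotrophic lateral sclerosis. Astrocytes came from early postnatal cortex by immunopanning on HepaCAM after panning away CD45, BSL I and O4 positive cells, and microglia came from early postnatal whole brain by magnetic selection. Astrocytes received PBS (quiescent) or 3 ng/mL IL-1α with 30 ng/mL TNFα and 400 ng/mL C1q (activated), and microglia received PBS (quiescent) or 50 ng/mL lipopolysaccharide (LPS). The transgene is present in every cell type of these animals, so no group has it in a single kind of glia. The 7 conditions, each with 3 libraries, were WT quiescent microglia, WT LPS microglia, SOD1 LPS microglia, WT quiescent astrocytes, SOD1 quiescent astrocytes, WT activated astrocytes and SOD1 activated astrocytes. The 3 libraries of SOD1 quiescent microglia were not analysed here, so the LPS response of SOD1 microglia is set against WT quiescent microglia. The labels do not say that libraries of a group came from separate cultures or animals, so p-values measure the spread between these libraries.

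Type I interferons bind a cell surface receptor, and the signal ends at the interferon-stimulated response element (ISRE) in the promoters of target genes. The members are counted among the genes that interferons induce, and several block viruses at separate steps: IFITM proteins hinder fusion with membranes, IFIT and OAS proteins recognise foreign RNA, Mx proteins trap viral particles, viperin poisons RNA synthesis, and Bst2 holds budding virions at the cell surface. Toll-like receptor 4, the LPS receptor, can induce interferon-β through the adaptor Ticam1, and microglia are a main responding cell of the brain.

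The libraries held from 2016139 to 11570122 reads assigned to genes, with a median of 5098168. Members took 0.565% ± 0.0202 (SD, n = 3) of the reads in WT quiescent microglia, 2.72% ± 0.136 in WT LPS microglia and 2.09% ± 0.555 in SOD1 LPS microglia. In astrocytes their share was 0.0690% ± 0.00880 in WT quiescent, 0.0794% ± 0.00816 in SOD1 quiescent, 0.128% ± 0.00475 in WT activated and 0.260% ± 0.0375 in SOD1 activated cultures. The share was thus highest in the LPS microglia and, among astrocytes, highest in the activated SOD1 cultures. A bulk measurement cannot tell fewer cells that express a gene from less RNA of it per cell.

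Differences were tested with limma on log2(normalized count + 1), and a gene was called when its adjusted p was under 0.001 and its change was more than 2-fold. Fold changes are on that scale, which understates the change of genes with few counts. Adjusted p-values are Benjamini-Hochberg values over all genes tested in that comparison.

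Cell identity was checked with lists of marker genes, in reads scaled to the library total (CPM). The 12 astrocyte markers summed to 5667 ± 627 CPM in WT quiescent astrocytes (most abundant Slc1a3 at 2386) and to 164 ± 7.35 in WT quiescent microglia. The 18 microglia markers summed to 16836 ± 538 in WT quiescent microglia (most abundant Csf1r at 2574) and to 7806 ± 528 after LPS. Each labelled cell type therefore carried its own markers. In each group of astrocyte cultures all 18 microglia markers were detected, though Gpr34 had 0 reads in WT quiescent replicate 1. Their sums were 249, 362 and 450.1 in the 3 WT quiescent, 561, 586 and 391 in the SOD1 quiescent, 302, 506 and 264 in the WT activated and 382, 252 and 281 in the SOD1 activated libraries. The sums of the SOD1 and WT libraries overlapped in both states, and in quiescent cultures their mean was higher in SOD1, at 513 ± 106 against 354 ± 101.

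Other lists were low or moved with treatment. The 7 peripheral myeloid markers summed to 6.76 ± 1.89 CPM in WT quiescent microglia, 15.4 ± 1.15 in WT LPS microglia and at most 0.425 ± 0.124 in any astrocyte group. The 10 oligodendrocyte lineage markers summed to 1343 ± 21.1 in WT quiescent microglia (most abundant Cspg4 at 1229) and 111 ± 4.15 after LPS, and to 2922 ± 89.03 in WT quiescent astrocytes (most abundant Olig1 at 1799) and 1075 ± 30.6 after activation. Of the 8 endothelial markers 4 were detected in each condition, and their sum was 10.7 ± 2.35 in WT quiescent and 146 ± 8.300 in WT activated astrocytes (most abundant Flt1 at 144), while Cldn5, Cdh5, Tie1 and Ly6c1 were at 0 in the activated cultures. The 8 pericyte and fibroblast markers summed to 70.2 ± 11.8 and the 8 neuronal markers to 899 ± 124 in WT quiescent astrocytes, the latter mostly Map2, against 27.3 ± 3.04 and 16.98 ± 1.37 in WT quiescent microglia.

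Some of these sums separated the genotypes without overlap. In quiescent astrocytes the oligodendrocyte lineage sums were higher in SOD1, at 3437, 3193 and 3241 against 3009, 2927 and 2831 CPM in WT, as were the peripheral myeloid sums, all below 1 CPM. The endothelial sums were lower in SOD1, at 6.61, 7.45 and 6.99 against 8.93, 9.896 and 13.4, and so were the pericyte and fibroblast sums, at 55.4, 52.3 and 39.8 against 60.02, 67.4 and 83.2. In activated astrocytes the astrocyte sums were 4517, 4468 and 4558 in SOD1 and 4581, 4601 and 4598 in WT, a narrow gap, the endothelial sums were 118, 117 and 111 in SOD1 and 137, 148 and 153 in WT, and the pericyte and fibroblast sums were 55.3, 58.5 and 58.1 and 78.2, 87.8 and 69.1. In LPS microglia the oligodendrocyte lineage sums were 153, 157 and 254 in SOD1 and 109, 108 and 116 in WT, and the peripheral myeloid sums were 11.8, 10.7 and 10.4 and 14.4, 16.7 and 15.2. Whether these differences bear on the members was not tested.

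At rest, members were far more abundant in microglia than in astrocytes. For comparisons across tables, reads were recovered from the normalized counts and scaled together. Of the 51 members tested, 44 were higher and 1 was lower in WT quiescent microglia than in WT quiescent astrocytes, against 22.5% and 24.8% of all 12064 genes called higher and lower. The median log2 difference of the members was 3.43, and that of all genes was -0.04. When genes needed 10 counts in every library to be tested, which removed members such as Uba7, 29 members were called. The share of all genes under that filter is not given here.

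The galectin Lgals9 stood at 13.1, 31.9 and 43.1 normalized counts in the astrocyte and 1489, 1649.6 and 1515 in the microglia libraries. Uba7, the enzyme that activates Isg15 for conjugation, had 0, 3.19 and 2.64 in astrocytes and 118, 160.3 and 119 in microglia. Neither gene overlapped between the cell types, and they had the largest differences among the tested members, with log2 fold changes of 5.83 (SE 0.33, adjusted p = 4.2e-08) and 5.74 (SE 0.50, adjusted p = 1.5e-06). Ly6e, a lipid-anchored surface protein, had 214, 261 and 296 in astrocytes and 6840.3, 7695 and 7274 in microglia, a log2 fold change of 4.83 (SE 0.12, adjusted p = 2.0e-10). Also higher in microglia were the Schlafen gene Slfn5, the nuclear body gene Sp100 and Ifi35, with log2 fold changes of Slfn5 5.46 (SE 0.21, adjusted p = 2.5e-09), Sp100 5.46 (SE 0.30, adjusted p = 3.9e-08) and Ifi35 5.40 (SE 0.37, adjusted p = 2.2e-07). Further called members were Oasl2 4.92 (SE 0.19, adjusted p = 2.8e-09), Trim25 3.87 (SE 0.13, adjusted p = 9.3e-10), Samhd1 2.34 (SE 0.16, adjusted p = 2.0e-07), Ifitm3 2.66 (SE 0.15, adjusted p = 5.0e-08), Parp14 4.88 (SE 0.21, adjusted p = 5.8e-09), Trim30a 5.18 (SE 0.25, adjusted p = 1.3e-08) and Ifi204 4.91 (SE 0.23, adjusted p = 9.5e-09). Also called were Daxx 1.29 (SE 0.13, adjusted p = 6.0e-06), Helz2 4.59 (SE 0.35, adjusted p = 4.6e-07), Lgals3bp 5.06 (SE 0.12, adjusted p = 1.7e-10), Irgm2 4.08 (SE 0.23, adjusted p = 4.3e-08) and Xaf1 4.96 (SE 0.17, adjusted p = 1.0e-09).

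Ifitm2, a restriction factor of viral membrane fusion, went the other way. It had 160.4, 195 and 132 normalized counts in astrocytes and 67.3, 65.1 and 72.2 in microglia, with every astrocyte library above every microglia library, and its log2 fold change was -1.22, with an SE of 0.17 and an adjusted p of 4.8e-05. Ifit2, which binds RNA, had 248, 258 and 302 in astrocytes and 235, 269.5 and 251 in microglia. Its values overlapped, with a log2 fold change of -0.09 (SE 0.11, adjusted p = 0.471), and those of Parp11, an ADP-ribosyltransferase of the nuclear envelope, overlapped as well at -0.49 (SE 0.22, adjusted p = 0.0595). Mx1 was not called either, at 2.04 (SE 0.45, adjusted p = 0.00178). With 1 library left out Ifit2 ran from -0.15 to -0.00752 and Parp11 from -0.68 to -0.29. Ifitm1 had 0 reads in all 3 WT quiescent microglia libraries and 0, 0 and 2 reads in WT quiescent astrocytes, so no ratio is given. The GTPase Ifi47 had 19, 4 and 16 reads in microglia and 0, 0 and 3 in astrocytes, a ratio of 14.4 with a counting interval of 4.58 to 72.8. Such intervals and floors cover counting error alone.

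By CPM, a scale set by library totals, the 18 microglia markers reached 1.41% to 5.42% of their microglial level in WT quiescent astrocytes, with a median of 2.12%. Over the 54 members with reads in microglia that ratio ran from 2.16% for Uba7 to 358% for Ifitm2, with a median of 12.5%. For 16 of these members the ratio was at or below that of the highest marker, P2ry12. On this scale Pml, Ifit2, Parp11 and Ifitm2 were higher in astrocytes, at 113%, 160%, 208% and 358%, while under joint scaling Pml was higher in microglia, at 0.41, Ifit2 was at -0.09, Parp11 at -0.49 and Ifitm2 at -1.22. How much of the members' signal in the astrocyte cultures came from microglia was not tested.

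Per kilobase of exon, the most abundant members in WT quiescent microglia were Ly6e at 329 ± 14.3 CPM per kilobase (mean ± SD, n = 3), the secreted galectin-binding protein Lgals3bp at 215 ± 13.8, Shisa5, a membrane protein of the endoplasmic reticulum, at 205 ± 16.1 and Ifitm3 at 191 ± 14.96. Lgals3bp, Shisa5 and Ifitm3 did not separate beyond their spread. The least abundant with reads were Ifi44 at 0.382 ± 0.0545 and the helicase Ddx60 at 0.395 ± 0.0279. In WT quiescent astrocytes Ifitm2 led at 63.9 ± 13.9, followed by Ifitm3 at 45.4 ± 8.03, Ifit2 at 17.6 ± 1.14, Ly6e at 17.4 ± 2.11 and Shisa5 at 17.2 ± 2.29, of which the last 3 lay within each other's spread. After LPS the order in WT microglia was led by Ifitm3 at 1219.7 ± 245, Bst2 at 764 ± 166, Lgals3bp at 721 ± 45.5 and Isg15 at 635 ± 125. The last 3 did not separate beyond their spread from each other or from the next member, Ifit3 at 608 ± 92.9. In SOD1 activated astrocytes Ifitm3 at 435 ± 31.5 and Ifitm2 at 369 ± 40.3 stood far above the next member, Ifit3 at 51.1 ± 9.398.

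**Figure D1:**
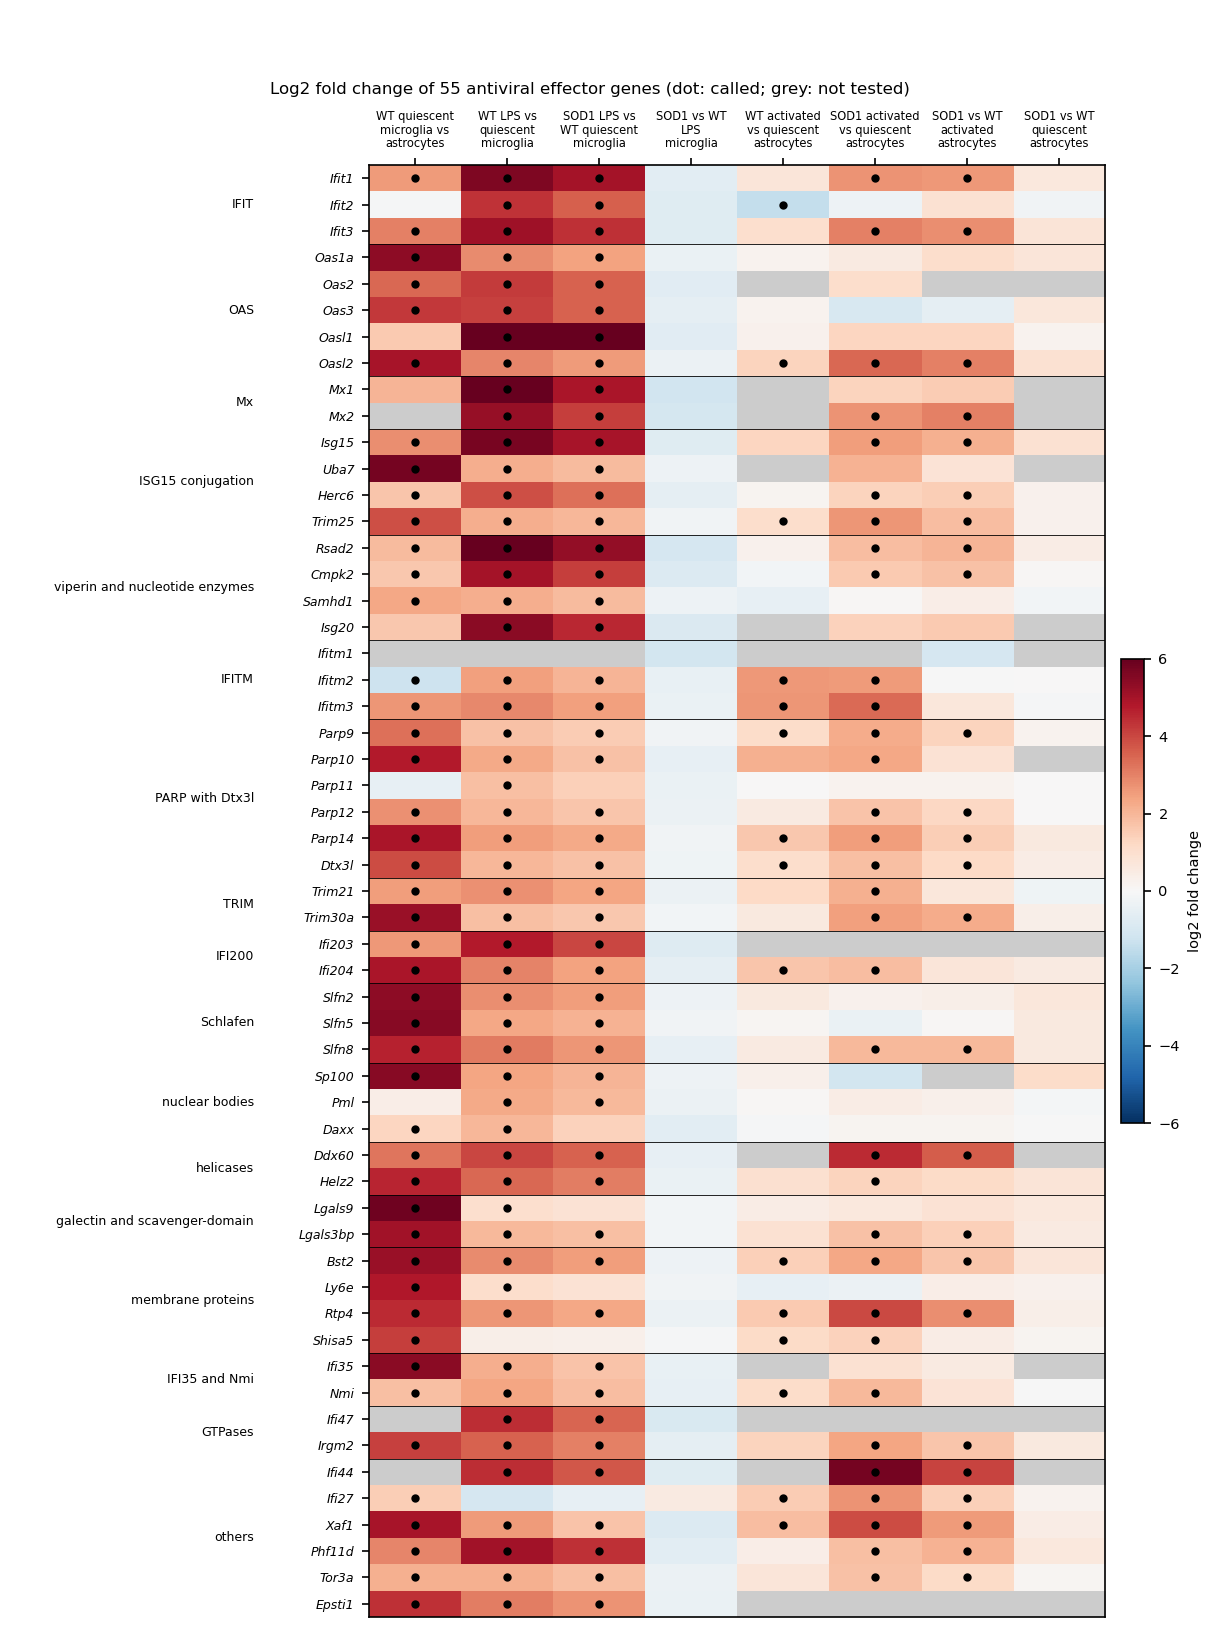
Log2 fold change of each of the 55 members (rows, grouped by subfamily) in 8 comparisons (columns), with red for higher and blue for lower in the group named first, colours ending at 6 and -6, a dot where the member was called and grey where it was not tested. In WT LPS microglia 52 members were called higher, in SOD1 against WT activated astrocytes 25 were, and in SOD1 against WT LPS microglia 0 were.

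The comparison of LPS with PBS in WT microglia asks how these genes respond in the cell that releases the astrocyte-activating factors. Of 54 members tested, 52 rose and 0 fell, while 10.2% of the 10866 genes tested were called higher and 10.6% lower. The members' median log2 fold change was 2.82, and that of all genes was 0.005. The largest responses among the tested members were those of Oasl1, Rsad2 and Mx1. Leaving out any library gave 50 to 53 called members.

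Oasl1, an oligoadenylate synthetase-like protein, went from 34.5, 35.8 and 36.3 normalized counts in the quiescent libraries to 4334, 4440.1 and 3882 after LPS. Rsad2, or viperin, which makes a chain-terminating nucleotide, went from 142, 139 and 148 to 9669.6, 12764 and 10390.0. Mx1, a dynamin-like GTPase, went from 19.3, 23.1 and 21.9 to 1595, 1613 and 1255. In each of these genes the lowest LPS library lay far above the highest quiescent library, with log2 fold changes of Oasl1 6.85 (SE 0.09, adjusted p = 2.2e-11), Rsad2 6.24 (SE 0.11, adjusted p = 3.0e-11) and Mx1 6.05 (SE 0.13, adjusted p = 1.4e-10). The ubiquitin-like modifier Isg15 had 57.3, 61.01 and 49.2 before and 3491, 2837 and 2448 after LPS. Ifit1, which binds RNA caps of foreign type, had 132, 139 and 144 before and 6777, 7419.9 and 6241 after. These genes complete the 5 largest responses at Isg15 5.68 (SE 0.14, adjusted p = 2.7e-10) and Ifit1 5.61 (SE 0.09, adjusted p = 2.4e-11).

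Families differed in size of response. By the median of their tested members the Mx genes ranked first at 5.63, followed by viperin with the nucleotide enzymes at 5.20, the IFIT genes at 5.09 and the OAS genes at 4.11. The lowest were the galectin pair at 1.49, the membrane proteins at 1.86 and the PARP genes with their partner ligase Dtx3l at 2.01. Within the OAS family, Oasl2 at 2.91 (SE 0.08, adjusted p = 5.9e-10) stood well below Oasl1. Reads of Oas1a may be shared with Oas1g, of Ifit1 and Ifit3 with Ifit1bl1 and Ifit3b, and of Ifi203, Ifi204, Slfn8 and Trim30a with neighbouring paralogs, so their levels are uncertain. An immunity-related GTPase, a helicase and a DNA-binding protein gave Irgm2 3.54 (SE 0.12, adjusted p = 2.3e-09), Helz2 3.44 (SE 0.15, adjusted p = 1.7e-08) and Ifi204 2.97 (SE 0.09, adjusted p = 1.6e-09). A fusion inhibitor, a Schlafen protein and an apoptosis factor gave Ifitm3 2.87 (SE 0.12, adjusted p = 1.7e-08), Slfn2 2.80 (SE 0.09, adjusted p = 2.5e-09) and Xaf1 2.54 (SE 0.08, adjusted p = 1.4e-09).

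Other members that rose were Parp14 2.52 (SE 0.13, adjusted p = 5.7e-08), Sp100 2.36 (SE 0.10, adjusted p = 1.4e-08), Ifi35 2.16 (SE 0.13, adjusted p = 1.6e-07), Lgals3bp 1.96 (SE 0.09, adjusted p = 2.3e-08) and Trim30a 1.81 (SE 0.11, adjusted p = 1.7e-07). The smallest called responses were Ly6e 1.05 (SE 0.10, adjusted p = 6.3e-06) and Lgals9 1.01 (SE 0.09, adjusted p = 4.1e-06). Shisa5 had 3370.1, 3957 and 3359 before and 4427, 4730.2 and 4561 after LPS. All 3 LPS libraries lay above the quiescent ones, but the change was less than 2-fold and it was not called, at 0.36 (SE 0.09, adjusted p = 0.00469). Ifi27, an interferon-inducible membrane protein of the mitochondrion and nucleus, had 45.7, 44.2 and 42.4 before and 22.03, 23.4 and 18.2 after LPS. Every LPS library was lower, with a log2 fold change of -1.03 (SE 0.20, adjusted p = 0.00127), just outside the limit of 0.001. Its reads may be shared with Ifi27l2a. Ifitm1 had 24, 18 and 14 reads after LPS against 0 in every quiescent library, at least 5.74-fold higher when each quiescent library is given a floor of 3 reads.

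In WT astrocytes, IL-1α, TNFα and C1q changed fewer members. Of 43 tested, 14 rose and 1 fell, while 6% and 5.54% of the 12336 genes tested were called higher and lower. The members' median was 0.73, against 0.01 for all genes. The count of 15 depended on which library was left out: it was 5 without WT activated replicate 1, 2 or 3 in turn, 6 without WT quiescent replicate 2, 14 without WT quiescent replicate 1 and 17 without WT quiescent replicate 3. It was 8 when limma was run without the intensity trend.

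The IFITM genes ranked first among the families, with a median of 2.65 over the 2 that were tested. Ifitm3 had 116, 154 and 175 normalized counts in the quiescent and 897, 894 and 1016 in the activated libraries. Ifitm2 had 200.3, 241 and 160.1 in quiescent and 1174, 1232 and 1271 in activated libraries. For both genes all activated libraries lay several-fold above all quiescent libraries, with log2 fold changes of Ifitm3 2.67 (SE 0.14, adjusted p = 1.3e-07) and Ifitm2 2.62 (SE 0.13, adjusted p = 1.0e-07). Ifitm1 was too low to be tested, with 0, 0 and 2 reads in quiescent and 23, 19 and 23 in activated cultures, a ratio of 27.7 with a counting interval of 7.36 to 233. Ifi47 had 0, 0 and 3 reads in quiescent and 7, 4 and 1 in activated cultures, a ratio of 3.41 with an interval of 0.919 to 18.8.

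Xaf1 had 20.97, 32.8 and 27.2 in quiescent and 96.4, 82.01 and 119 in activated cultures, without overlap, and Ifi204 had 20.97, 32.8 and 43.8 in quiescent and 96.4, 116 and 89.7 in activated cultures, also without overlap. Their log2 fold changes were Xaf1 1.84 (SE 0.22, adjusted p = 4.8e-05) and Ifi204 1.65 (SE 0.25, adjusted p = 3.0e-04). The other called members named here were Oasl2 1.36 (SE 0.23, adjusted p = 7.1e-04), Shisa5 1.13 (SE 0.12, adjusted p = 1.7e-05) and Nmi 1.09 (SE 0.18, adjusted p = 5.4e-04). Parp10 had a log2 fold change of 2.15 (SE 0.48, adjusted p = 0.00474) and was not called, with 2.33, 7.87 and 12.3 counts at rest and 29.9, 42.8 and 24.1 after activation.

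Ifit2 was the member that fell. It had 309.8, 319 and 366 counts in quiescent and 122, 136 and 109 in activated libraries, every activated library below every quiescent one, and its log2 fold change was -1.43, with an SE of 0.12 and an adjusted p of 3.7e-06. The other members of its family, Ifit1 0.73 (SE 0.29, adjusted p = 0.0666) and Ifit3 0.99 (SE 0.25, adjusted p = 0.00834), were not called. Also not called were Samhd1 -0.48 (SE 0.16, adjusted p = 0.0314), Ly6e -0.48 (SE 0.14, adjusted p = 0.0163), Pml 0.08 (SE 0.13, adjusted p = 0.671) and Herc6 0.14 (SE 0.19, adjusted p = 0.591). Further members without a call were Parp12 0.54 (SE 0.13, adjusted p = 0.00646), Trim30a 0.59 (SE 0.30, adjusted p = 0.1504), Slfn2 0.61 (SE 0.50, adjusted p = 0.373), Helz2 0.97 (SE 0.39, adjusted p = 0.0741) and Lgals3bp 0.90 (SE 0.13, adjusted p = 1.9e-04), and Irgm2 1.31 (SE 0.33, adjusted p = 0.00845) and Tor3a 0.71 (SE 0.11, adjusted p = 4.2e-04). Helz2 ran from 0.47 to 1.29, Trim30a from 0.32 to 0.91 and Samhd1 from -0.60 to -0.29 with 1 library left out. The nuclear body genes Sp100, Pml and Daxx had a median of 0.08, whose sign turned under quantile normalization.

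The responses of WT microglia to LPS and of WT astrocytes to the 3 factors were then compared in a single model, in which stimulus and cell type differ together. Of 54 members, 35 responded more in microglia and 1 responded more in astrocytes, while 6.73% and 8.44% of 12334 genes were called in those directions. The median difference of log2 responses was 2.07 over the members and 0.004 over all genes. Leaving out any library gave 33 to 41 called members. Only 43 members were tested in WT astrocytes alone. Others, such as Mx1, passed the filter here through the microglia libraries, so their differences rest on few astrocyte reads.

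The largest differences were those of Oasl1 6.63 (SE 0.36, adjusted p = 5.3e-09), Rsad2 6.01 (SE 0.25, adjusted p = 4.2e-10), Ifit2 5.79 (SE 0.18, adjusted p = 5.6e-11), Mx1 5.70 (SE 0.50, adjusted p = 5.0e-07) and Cmpk2 5.17 (SE 0.27, adjusted p = 3.5e-09), of which Cmpk2 is a mitochondrial nucleotide kinase encoded beside Rsad2. Mx1 was too low to be tested in WT astrocytes alone, so its difference and rank are uncertain. Ifit2 moved in opposite directions in the 2 cell types, with responses of 4.33 in microglia and -1.43 in astrocytes. Ifi27 was the member with the larger astrocyte response, since it had 1.52 in astrocytes and -1.03 in microglia and a difference of -2.52 (SE 0.31, adjusted p = 1.6e-05). Ifitm2 and Ifitm3 were not called, with differences of Ifitm2 -0.14 (SE 0.18, adjusted p = 0.585) and Ifitm3 0.23 (SE 0.22, adjusted p = 0.422). The median of this family was 0.05, with its sign turning under quantile normalization. With 1 library left out Ifitm2 ran from -0.28 to -0.000906, Ifitm3 from 0.0829 to 0.40 and Ifi35 from 0.60 to 1.47. Other differences were Ifit1 4.91 (SE 0.32, adjusted p = 2.6e-08), Isg15 4.41 (SE 0.46, adjusted p = 3.1e-06), Helz2 2.50 (SE 0.47, adjusted p = 6.4e-04), Oasl2 1.58 (SE 0.23, adjusted p = 8.3e-05), Sp100 2.07 (SE 0.40, adjusted p = 8.2e-04) and Slfn2 2.23 (SE 0.58, adjusted p = 0.007000). Those of the remaining named members were Parp14 0.93 (SE 0.28, adjusted p = 0.0173), Trim30a 1.24 (SE 0.33, adjusted p = 0.00808), Ifi204 1.34 (SE 0.28, adjusted p = 0.00136) and Lgals3bp 1.09 (SE 0.16, adjusted p = 6.4e-05), and Ly6e 1.56 (SE 0.19, adjusted p = 1.1e-05), Shisa5 -0.74 (SE 0.16, adjusted p = 0.00176), Ifi35 1.03 (SE 0.45, adjusted p = 0.08398), Irgm2 2.26 (SE 0.29, adjusted p = 2.5e-05) and Xaf1 0.73 (SE 0.21, adjusted p = 0.0141).

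**Figure D2:**
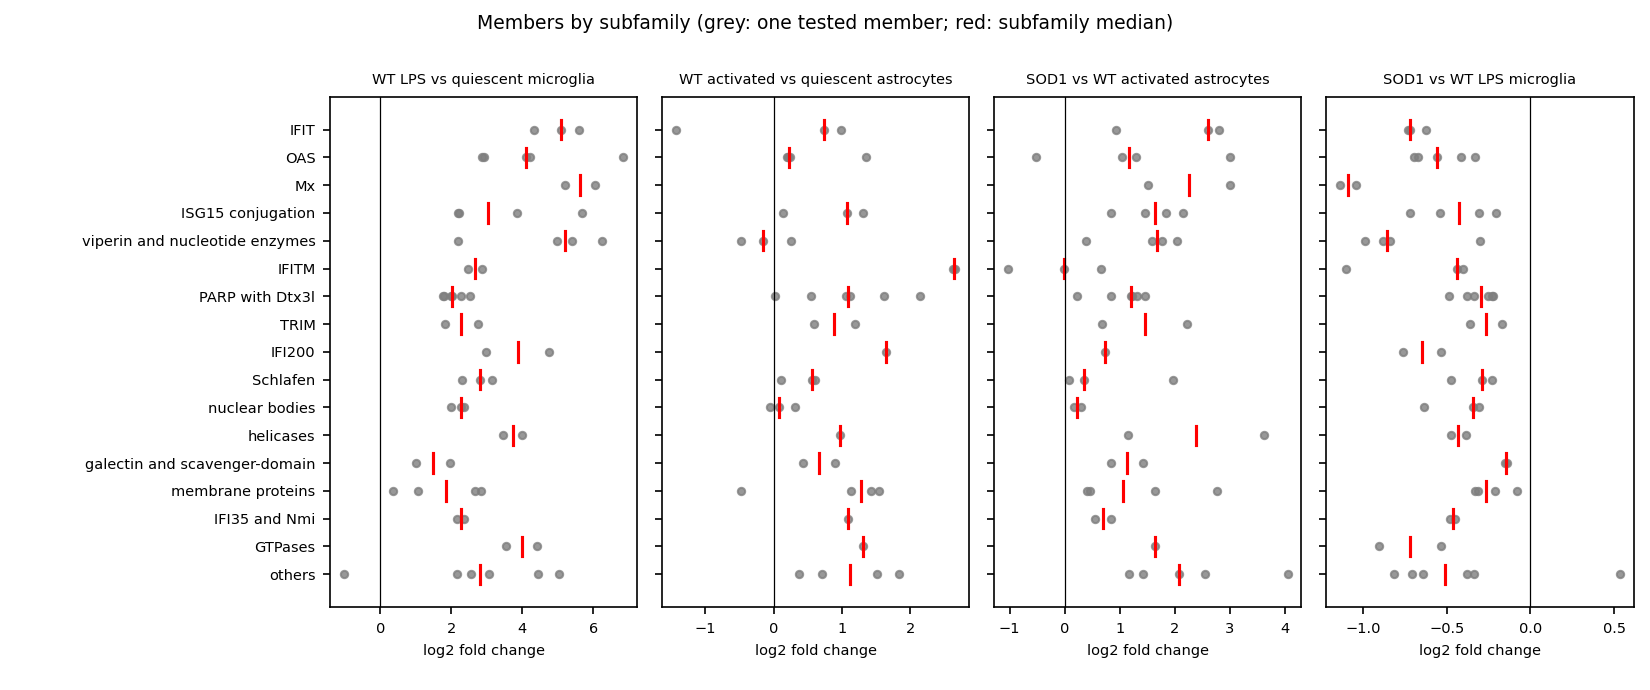
Log2 fold change (horizontal axis, a separate scale in each panel) of every tested member, grouped by subfamily (vertical axis), in 4 comparisons, with grey points for single members and red bars for the subfamily median. The Mx genes led in LPS microglia with a median of 5.63, the IFITM genes led in WT activated astrocytes with 2.65, and the IFIT genes led in SOD1 against WT activated astrocytes with 2.61.

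The comparison of SOD1 with WT activated astrocytes asks whether the reactive state differs between the genotypes. Of 50 members tested, 25 were higher and 0 were lower in SOD1 cultures, while 0.521% of the 12098 genes tested were called higher and 0.124% lower. The members' median log2 fold change was 1.26, against -0.004 over all genes. Of the 63 genes called higher in this comparison, 25 were members, or 39.7%, and 5 of the 10 largest changes among those 63 were members. Leaving out any library gave 24 to 27 called members, and limma without the intensity trend called 0. Marker sums that differed between these cultures are given above.

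Ifi44, a gene of unclear function with a GTP-binding motif, had 11.6, 10.5 and 17.00 normalized counts in WT and 312, 222 and 169 in SOD1 activated libraries. It had the largest difference among the genes called higher, at 4.05 (SE 0.22, adjusted p = 8.1e-11). Oasl2 had 63.1, 56.6 and 73.2 in WT and 701, 426 and 478 in SOD1 libraries. Every SOD1 library was several-fold above every WT library in both genes, and SOD1 replicate 1 was the highest of the 3. Ifit3 had 42.4, 59.1 and 61.4 in WT and 459.8, 323 and 375 in SOD1 libraries. Rtp4, a chaperone of membrane receptors, had 48.2, 49.2 and 55.4 in WT and 485, 294 and 307 in SOD1 libraries. For Isg15 the WT values were 20.8, 26.5 and 19.96 and the SOD1 values 139, 83.7 and 91.6. None of these 3 genes overlapped between genotypes, and their log2 fold changes with that of Oasl2 were Oasl2 3.01 (SE 0.14, adjusted p = 3.6e-11), Ifit3 2.81 (SE 0.14, adjusted p = 5.1e-11), Rtp4 2.77 (SE 0.15, adjusted p = 8.4e-11) and Isg15 2.15 (SE 0.20, adjusted p = 4.2e-07).

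Ddx60, a helicase that aids RNA sensing, had 8.31, 0.616 and 5.17 in WT and 78.6, 47.3 and 44.8 in SOD1 libraries. Mx2 had 2.49, 11.7 and 3.696 in WT and 70.5, 39.6 and 36.6 in SOD1 libraries. Both were close to the detection limit in WT cultures and clear of it in SOD1 cultures, at Ddx60 3.63 (SE 0.47, adjusted p = 2.5e-05) and Mx2 3.01 (SE 0.41, adjusted p = 4.5e-05). They passed the filter only through the SOD1 libraries, so the size of these differences is uncertain. The count of called members above includes them. Other called members were Trim25 1.84 (SE 0.13, adjusted p = 4.1e-09), Parp14 1.47 (SE 0.12, adjusted p = 4.8e-08), Trim30a 2.22 (SE 0.16, adjusted p = 1.0e-08) and Slfn8 1.96 (SE 0.24, adjusted p = 1.0e-05). In the same direction were Lgals3bp 1.43 (SE 0.11, adjusted p = 2.3e-08), Irgm2 1.64 (SE 0.22, adjusted p = 4.9e-05) and Tor3a 1.17 (SE 0.08, adjusted p = 6.6e-09), of which Lgals3bp is secreted and Tor3a is an ATPase of the endoplasmic reticulum.

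The IFITM genes, which led the WT response to activation, had no called member by genotype. Ifitm2 had 1012, 1064 and 1089.5 in WT and 939, 1169 and 1024 in SOD1 libraries. The genotypes overlapped, at -0.02 (SE 0.07, adjusted p = 0.9205). Ifitm3 had 773, 772 and 871 in WT and 1355, 1179 and 1289 in SOD1 libraries, without overlap, and at 0.66 (SE 0.07, adjusted p = 1.4e-06) it stayed under the 2-fold limit. Ifitm1 had the lowest log2 fold change, -1.03 (SE 0.37, adjusted p = 0.104), with 19.1, 11.7 and 17.00 counts in WT and 5.78, 7.71 and 8.14 in SOD1 libraries, and Oas3 had -0.52 (SE 0.38, adjusted p = 0.493). Oas3 ran from -0.86 to -0.14 with 1 library left out. The remaining named members were not called and had Samhd1 0.39 (SE 0.10, adjusted p = 0.02599), Ifi204 0.73 (SE 0.13, adjusted p = 0.00128), Pml 0.29 (SE 0.10, adjusted p = 0.107), Helz2 1.16 (SE 0.22, adjusted p = 0.00229), Shisa5 0.46 (SE 0.07, adjusted p = 8.0e-05) and Nmi 0.84 (SE 0.14, adjusted p = 4.3e-04). By family the order was led by the IFIT genes at 2.61, the helicases at 2.39, the Mx genes at 2.26 and the mixed group of Ifi44, Ifi27, Xaf1, Phf11d and Tor3a at 2.07. The helicase and Mx medians include Ddx60 and Mx2, which passed the filter only through the SOD1 group, so these ranks are uncertain. The Schlafen genes at 0.34 and the nuclear body genes at 0.23 stood near the end.

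**Figure D3:**
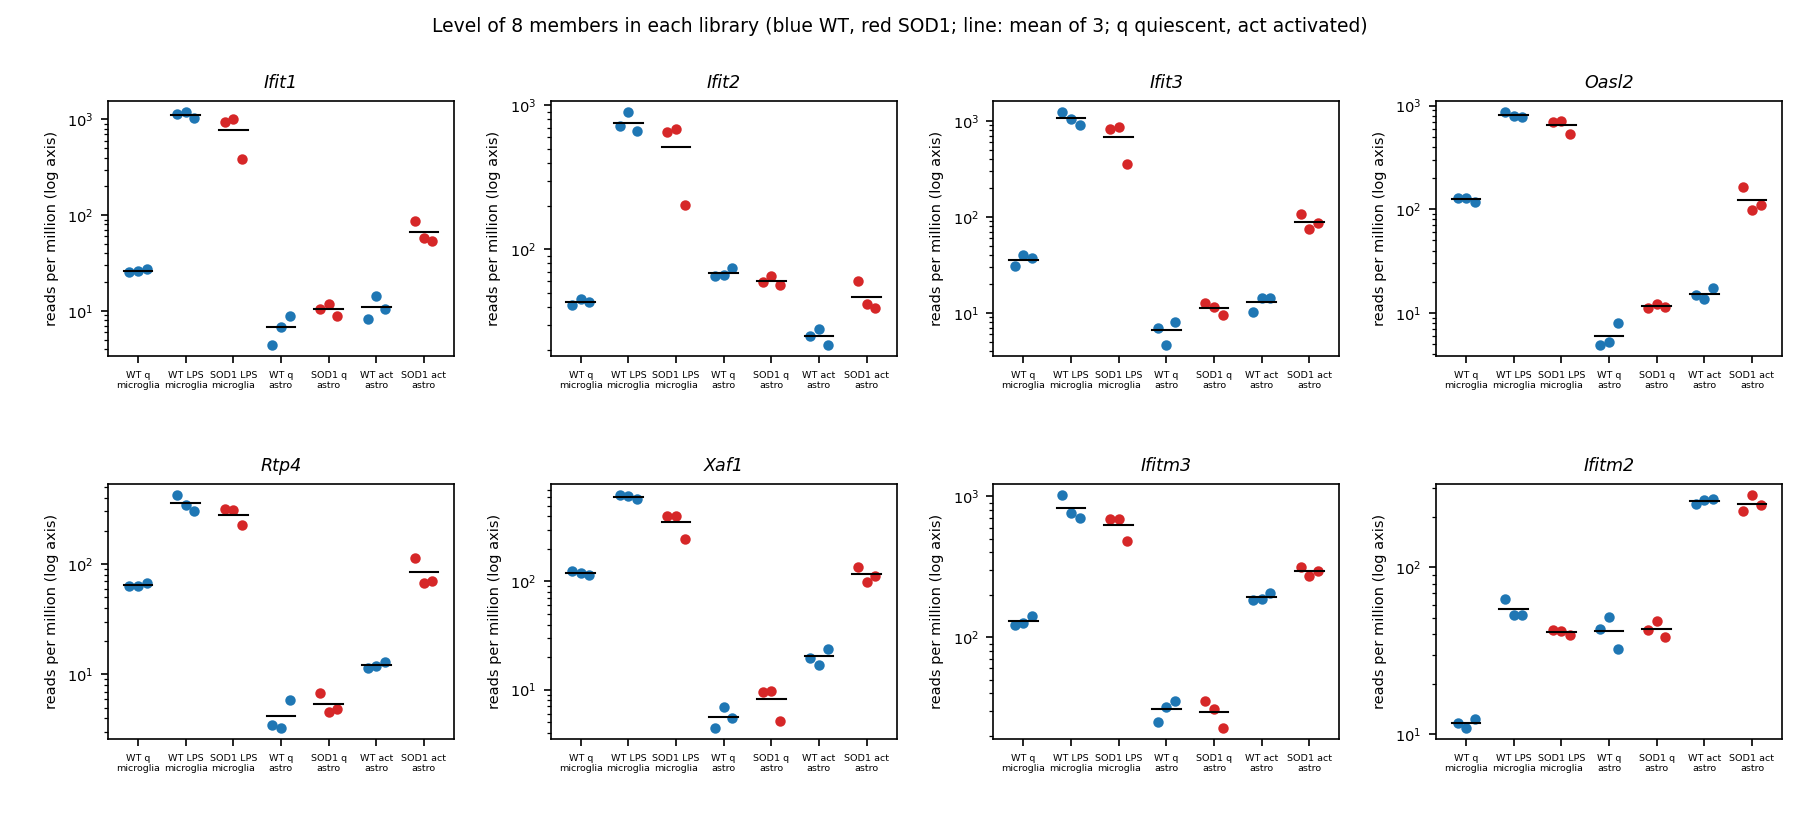
CPM (log axis) of 8 members in each of the 21 libraries, grouped by condition, with blue for WT, red for SOD1 and a line at the mean of 3 libraries. In Ifit1, Ifit3, Oasl2, Rtp4 and Xaf1 the 3 SOD1 activated astrocyte libraries lie above all 9 other astrocyte libraries, while in Ifitm2 they overlap with the WT activated libraries.

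Activation of SOD1 astrocytes was tested against quiescent SOD1 astrocytes. Of 51 members tested, 33 rose and 0 fell, while 6.74% and 6.4% of 12203 genes were called higher and lower. The members' median was 1.81, against -0.005 for all genes. Ifi44 had 2.29, 6.37 and 2.52 normalized counts in quiescent and 323, 231 and 175 in activated SOD1 libraries. Rtp4 had 29.8, 19.1 and 20.2 before and 502, 306 and 319 after activation. Xaf1 had 41.8, 40.6 and 21.4 before and 609, 444 and 508 after. In these genes no activated library came near a quiescent one, and with Ddx60 and Oasl2 they were the 5 largest at Ifi44 5.75 (SE 0.31, adjusted p = 5.7e-10), Ddx60 4.50 (SE 0.52, adjusted p = 2.8e-06), Rtp4 3.96 (SE 0.20, adjusted p = 2.9e-10), Xaf1 3.92 (SE 0.21, adjusted p = 3.5e-10) and Oasl2 3.43 (SE 0.16, adjusted p = 6.4e-11). Ifi44 and Ddx60 passed the filter only through the activated libraries, so the size and rank of their changes are uncertain. Ifitm3 reached 3.41 (SE 0.14, adjusted p = 2.0e-11), with 153, 130.4 and 94.5 counts before and 1402, 1225 and 1335 after activation.

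Other members that rose in SOD1 cultures were Mx2 2.68 (SE 0.32, adjusted p = 4.7e-06), Trim25 2.63 (SE 0.14, adjusted p = 6.0e-10), Parp14 2.51 (SE 0.16, adjusted p = 4.2e-09), Trim30a 2.44 (SE 0.17, adjusted p = 1.3e-08) and Slfn8 1.94 (SE 0.20, adjusted p = 9.2e-07), together with Ifi204 1.85 (SE 0.16, adjusted p = 1.1e-07), Helz2 1.33 (SE 0.22, adjusted p = 1.1e-04), Lgals3bp 1.77 (SE 0.16, adjusted p = 1.4e-07) and Shisa5 1.40 (SE 0.09, adjusted p = 6.6e-09), and Nmi 1.93 (SE 0.17, adjusted p = 1.1e-07), Irgm2 2.36 (SE 0.25, adjusted p = 1.3e-06) and Tor3a 1.75 (SE 0.12, adjusted p = 7.1e-09). Ifit2 was not called and overlapped between states, with 259, 275 and 234 counts before and 268, 189 and 177 after activation, at -0.30 (SE 0.14, adjusted p = 0.1002). The lowest were Sp100 -1.10 (SE 0.49, adjusted p = 0.07996), Oas3 -0.98 (SE 0.36, adjusted p = 0.0385) and Slfn5 -0.41 (SE 0.23, adjusted p = 0.171), none of them called. Leaving out 1 library gave -1.72 to -0.63 for Sp100, -1.33 to -0.61 for Oas3, -0.48 to -0.19 for Ifit2 and 0.00535 to 0.16 for Samhd1. Further uncalled members were Samhd1 0.08 (SE 0.12, adjusted p = 0.623) and Pml 0.47 (SE 0.13, adjusted p = 0.00755).

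Whether the activation response itself differed by genotype was tested as an interaction over the 12 astrocyte libraries. With limma 0 of 50 members were called in either direction, as were 0% of 12269 genes in each direction. At an unadjusted p under 0.05, 31 members had a larger response in SOD1 cultures and 1 a smaller, against 3.9% and 4.4% of all genes. At an adjusted p under 0.05 with more than 2-fold change, 13 members had a larger SOD1 response and 0 a smaller, against 0.22% and 0.00815% of all genes. These were Ifit1, Ifit2, Ifit3, Oasl2, Trim25, Rsad2, Cmpk2, Parp9, Parp12, Trim30a, Rtp4, Xaf1 and Tor3a. At the limit of 0.001, DESeq2 called 11 members and edgeR 0, and limma called 1 without WT quiescent replicate 1 and 14 with the library total as a covariate. Shares of all genes are not given for these fits, so such counts show only how the result depends on the fit.

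The members' median difference in response was 0.92, against 0.002 over all genes. The largest were Ddx60 3.56 (SE 1.09, adjusted p = 0.324), Ifi44 3.21 (SE 0.70, adjusted p = 0.0782), Rtp4 2.42 (SE 0.35, adjusted p = 0.00333), Mx2 2.10 (SE 0.67, adjusted p = 0.353) and Xaf1 2.09 (SE 0.33, adjusted p = 0.007995). Other named members had differences of Oasl2 2.09 (SE 0.28, adjusted p = 0.00276), Trim30a 1.86 (SE 0.36, adjusted p = 0.0445), Trim25 1.57 (SE 0.22, adjusted p = 0.00276) and Ifit2 1.14 (SE 0.20, adjusted p = 0.0212), and Parp12 1.19 (SE 0.19, adjusted p = 0.00976), Tor3a 1.05 (SE 0.16, adjusted p = 0.00678), Irgm2 1.06 (SE 0.41, adjusted p = 0.479) and Slfn8 1.39 (SE 0.43, adjusted p = 0.3301), in no order of size. At the limit of 0.001 these differences were not called. Ddx60, Ifi44 and Mx2 were too low to be tested in quiescent astrocytes or in WT activation, so their ranks are uncertain. The lowest were Sp100 -1.42 (SE 0.72, adjusted p = 0.637), Oas3 -1.18 (SE 0.53, adjusted p = 0.575) and Slfn5 -0.51 (SE 0.38, adjusted p = 0.761). Nearer to 0 were Ifitm2 -0.05 (SE 0.18, adjusted p = 0.9602), Ifi204 0.21 (SE 0.30, adjusted p = 0.891), Shisa5 0.28 (SE 0.15, adjusted p = 0.651) and Helz2 0.37 (SE 0.49, adjusted p = 0.876). With 1 library left out Sp100 ran from -2.04 to -0.94, Slfn5 from -0.74 to -0.27, Helz2 from 0.0489 to 0.87 and Shisa5 from 0.18 to 0.40. The remaining named members had Samhd1 0.56 (SE 0.20, adjusted p = 0.425), Pml 0.40 (SE 0.19, adjusted p = 0.5998), Lgals3bp 0.88 (SE 0.23, adjusted p = 0.166) and Nmi 0.84 (SE 0.23, adjusted p = 0.234).

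The genotypes were also compared in quiescent astrocytes. With limma 0 of 42 members tested were called higher or lower, as were 0% of 12271 genes in each direction, and DESeq2 and edgeR each called 0 members. At an unadjusted p under 0.05, 7 members were higher and 0 lower in SOD1 cultures, against 4.31% and 4.39% of all genes. The groups did not overlap for 7 members higher and 1 lower, against 7.07% and 7.57% of all genes. The log2 fold change was above 0 in 35 of the 42 members, with a median of 0.40, against 0.002 for all genes. Several marker sums given above also differed between these cultures, and whether that bears on the members was not tested. Over all genes, WT quiescent replicate 3 had a chi-square per degree of freedom of 9.45 and 6.82 against the others, which gave 2.08. Sampling noise alone gives values near 1. SOD1 quiescent replicate 1 had 6.77 and 10.4, and the other SOD1 libraries gave 2.88. These libraries also enter the activation comparisons and their interaction, and why they differed was not tested.

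Oasl2 had 24.6, 25.97 and 40.9 normalized counts in WT and 56.6, 59.3 and 56.3 in SOD1 quiescent libraries. Its SOD1 values were close together and above the WT values, with a log2 fold change of 0.93 (SE 0.23, adjusted p = 0.316), the lowest adjusted p among the tested members. Sp100 had 4.91, 9.57 and 13.8 in WT and 19.05, 26.3 and 16.3 in SOD1 libraries, a log2 fold change of 1.12 (SE 0.41, adjusted p = 0.497) at few counts. Isg15, Helz2 and Ifit3 had Isg15 0.92 (SE 0.46, adjusted p = 0.606), Helz2 0.79 (SE 0.38, adjusted p = 0.586) and Ifit3 0.76 (SE 0.25, adjusted p = 0.464), of which Isg15 was 0.46 and Helz2 0.30 without WT quiescent replicate 1. The lowest log2 fold changes were Trim21 -0.26 (SE 0.29, adjusted p = 0.817), Ifit2 -0.21 (SE 0.11, adjusted p = 0.608) and Samhd1 -0.18 (SE 0.16, adjusted p = 0.766). Other named members had Herc6 0.25 (SE 0.18, adjusted p = 0.708), Ifitm2 0.03 (SE 0.16, adjusted p = 0.964), Parp11 0.04 (SE 0.14, adjusted p = 0.951), Trim30a 0.36 (SE 0.31, adjusted p = 0.748), Ifi204 0.52 (SE 0.27, adjusted p = 0.608) and Slfn2 0.67 (SE 0.55, adjusted p = 0.742). The last of the named members had Pml -0.11 (SE 0.14, adjusted p = 0.836), Lgals3bp 0.55 (SE 0.17, adjusted p = 0.434) and Ly6e 0.26 (SE 0.15, adjusted p = 0.635), and Nmi -0.0034 (SE 0.21, adjusted p = 0.996), Irgm2 0.59 (SE 0.36, adjusted p = 0.6701) and Tor3a 0.12 (SE 0.14, adjusted p = 0.824). Family medians of viperin with the nucleotide enzymes, 0.07, and of the TRIM genes, 0.05, changed sign under quantile normalization. For Slfn2 the value was -0.04 without WT quiescent replicate 1. With 1 library left out, the values of 14 of the 20 named members moved by more than 1.5 times, so their order by size is uncertain.

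In LPS microglia, SOD1 and WT libraries were compared directly. With limma 0 of 55 members were called higher or lower, as were 0% of 10679 genes in each direction, and DESeq2 and edgeR each called 0 members. At an unadjusted p under 0.05, 14 members were lower and 1 was higher in SOD1 libraries, against 4.22% and 4.49% of all genes. The groups did not overlap for 27 members lower and 1 higher, against 9.09% of all genes in each direction. The members' median was -0.44, against 0.008 for all genes.

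In the members, SOD1 LPS replicate 3 stood apart from the other LPS libraries. It had the lowest value of the 6 libraries in 54 of 55 members, with Ifi27 as the exception. Ifit1 had 6729, 7360.0 and 6242 normalized counts in WT and 5874, 6207 and 2309.8 in SOD1 LPS libraries. Mx1 had 1584, 1599.8 and 1255 in WT and 1062, 1100.4 and 254 in SOD1 libraries. Rsad2 had 9602, 12660.5 and 10391 in WT and 8409, 9393 and 2040.0 in SOD1 libraries. In each gene the first and second SOD1 libraries lay below the lowest WT library by a small margin, and the third lay far below it. Their log2 fold changes were Ifit1 -0.63 (SE 0.33, adjusted p = 0.5897), Mx1 -1.14 (SE 0.48, adjusted p = 0.573) and Rsad2 -0.99 (SE 0.49, adjusted p = 0.586). Without replicate 3 the members' median was -0.16 and 0 were called, and these genes had log2 fold changes of -0.16, -0.44 and -0.28 with adjusted p of 0.914, 0.855 and 0.893. At an unadjusted p under 0.05, 11 members were then lower and 0 higher, against 2.89% and 2.56% of the 10665 genes tested.

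The same library differed, by gene to an unequal extent, in LPS response genes outside the list. Nos2, the inducible nitric oxide synthase, stood at 48.2 CPM there, against 415 and 427 in the other SOD1 LPS libraries and 464 to 512 in the WT ones. Nos2 had the widest gap of the LPS-induced genes examined. Ptgs2 stood at 5342 CPM, against 9912 and 9966 in the other SOD1 LPS libraries and 6876, 10318 and 10520 in the WT ones. The other genes examined had in replicate 3, against the first and second SOD1 LPS libraries, 3200 against 4504 and 4533 CPM for Il1b, 2307 against 3036 and 3169 for Il1a, 414 against 567 and 582 for Il6, 286 against 369 and 369 for Nfkbia, 282 against 371 and 341 for Cxcl1, 849 against 968 and 959 for Tnf, and 1303 against 1469 and 1342 for Cxcl2. In the WT LPS libraries Il1a stood at 3964, 4304 and 4252 CPM, Il6 at 774, 656 and 620, and Cxcl1 at 527, 446 and 465. Cxcl2 stood there at 1915, 1703 and 1703 and Nfkbia at 461, 389 and 379. In these genes every SOD1 library was below every WT library. For Il1b, at 4884, 4351 and 4541 in WT, and Tnf, at 1057, 942 and 878, only replicate 3 was. Over the 52 members called in WT microglia the median log2 change of replicate 3 from the WT quiescent mean was 2.03, against 2.67 to 2.94 in the other LPS libraries. Over 1058 other genes that LPS raised it was 1.59, against 2.00 to 2.11. Over 1153 genes that LPS lowered it was -1.27, against -1.59 to -1.85. Cx3cr1, a homeostatic microglia gene that was low after LPS, stood at 769 CPM in replicate 3, against 444 and 417 in the other SOD1 libraries and 256, 264 and 260 in the WT LPS libraries. All 3 SOD1 libraries were thus above WT in this gene, as they were in Csf1r and P2ry12. Tmem119 overlapped, at 14.0, 18.2 and 30.7 in SOD1 against 16.6, 13.1 and 11.8 in WT LPS libraries. WT LPS replicate 1 also differed from its group over all genes: its chi-square per degree of freedom, which is near 1 when libraries differ by sampling noise alone, was 15.05 and 13.8 against the other WT LPS libraries, which gave 1.65 between them. For SOD1 LPS replicate 3 it was 16.8 and 21.7, and the other SOD1 LPS libraries gave 2.41. Why these libraries differed was not tested.

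Ifi27 had 21.9, 23.2 and 18.2 in WT and 29.3, 27.03 and 36.9 in SOD1 LPS libraries, the single member above WT in every SOD1 library, at 0.53 (SE 0.23, adjusted p = 0.573). It was 0.41 without replicate 3. With all libraries the lowest after Mx1 were Ifitm1 -1.10 (SE 0.51, adjusted p = 0.577) and Mx2 -1.04 (SE 0.33, adjusted p = 0.571). Without replicate 3 Mx2 was the lowest member at -0.59, Xaf1 was at -0.57 and Ifitm1 at -0.48. With all libraries the smallest differences were Shisa5 -0.08 (SE 0.11, adjusted p = 0.831), Lgals9 -0.14 (SE 0.10, adjusted p = 0.659), Lgals3bp -0.15 (SE 0.13, adjusted p = 0.709) and Trim30a -0.17 (SE 0.14, adjusted p = 0.699). Other members had Oasl2 -0.33 (SE 0.14, adjusted p = 0.573), Isg15 -0.72 (SE 0.30, adjusted p = 0.573), Ifitm3 -0.41 (SE 0.18, adjusted p = 0.577) and Parp14 -0.23 (SE 0.19, adjusted p = 0.693), then Ifi204 -0.53 (SE 0.27, adjusted p = 0.586), Slfn2 -0.29 (SE 0.16, adjusted p = 0.591), Sp100 -0.31 (SE 0.20, adjusted p = 0.626) and Helz2 -0.39 (SE 0.27, adjusted p = 0.646), and Ly6e -0.21 (SE 0.15, adjusted p = 0.653), Ifi35 -0.45 (SE 0.22, adjusted p = 0.577), Irgm2 -0.54 (SE 0.28, adjusted p = 0.5897) and Xaf1 -0.81 (SE 0.19, adjusted p = 0.571). The values of 19 of the 22 named members moved by more than 1.5 times when 1 library was left out. Without replicate 3 Ifi204 was -0.17, Slfn2 -0.11, Sp100 -0.0484, Helz2 -0.0727, Irgm2 -0.15, Isg15 -0.33, Oasl2 -0.18, Ifitm3 -0.22, Parp14 -0.0564, Ifi35 -0.20, Ly6e -0.0822, Lgals9 -0.11, Lgals3bp -0.0450, Trim30a -0.0614 and Shisa5 0.0139.

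Against WT quiescent microglia, which both LPS groups share as controls, SOD1 LPS microglia had 48 of 54 members higher and 0 lower, while 8.22% and 7.51% of 10921 genes were called. The members' median was 2.43, against 0.009 for all genes, and leaving out any library gave 38 to 50 called members. The largest were Oasl1 6.15 (SE 0.37, adjusted p = 1.9e-06), Rsad2 5.25 (SE 0.49, adjusted p = 2.7e-05), Ifit1 4.99 (SE 0.32, adjusted p = 2.9e-06), Isg15 4.96 (SE 0.29, adjusted p = 1.5e-06) and Mx1 4.91 (SE 0.49, adjusted p = 4.1e-05). Members not called were Daxx, Ifi27, Lgals9, Ly6e, Parp11 and Shisa5, of which the lowest were Ifi27 -0.50 (SE 0.19, adjusted p = 0.0492), Shisa5 0.29 (SE 0.10, adjusted p = 0.0425) and Ly6e 0.84 (SE 0.12, adjusted p = 3.0e-04). Other named members had Oasl2 2.58 (SE 0.12, adjusted p = 5.0e-07), Trim25 2.00 (SE 0.13, adjusted p = 2.7e-06), Ifitm3 2.47 (SE 0.15, adjusted p = 2.0e-06) and Parp14 2.29 (SE 0.14, adjusted p = 1.9e-06), then Trim30a 1.64 (SE 0.10, adjusted p = 1.9e-06), Ifi204 2.43 (SE 0.26, adjusted p = 6.8e-05), Slfn2 2.51 (SE 0.15, adjusted p = 1.6e-06) and Sp100 2.05 (SE 0.20, adjusted p = 3.5e-05), and Helz2 3.06 (SE 0.23, adjusted p = 6.2e-06), Lgals3bp 1.81 (SE 0.11, adjusted p = 1.8e-06), Ifi35 1.71 (SE 0.19, adjusted p = 8.5e-05), Irgm2 3.00 (SE 0.28, adjusted p = 2.6e-05) and Xaf1 1.73 (SE 0.18, adjusted p = 5.6e-05). Ifitm1 had 13, 25 and 2 reads in SOD1 LPS libraries, at least 2.97-fold above a floor of 3 reads in each quiescent library.

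The difference between SOD1 and WT libraries (the genotype effect) in LPS microglia was also set against that in activated astrocytes. This model over 12 libraries was added after the values had been seen. Of 55 members, 7 had a lower genotype effect in microglia and 0 a higher, while 0.124% and 0.00825% of 12122 genes were called in those directions. The 7 were Trim25 -2.05 (SE 0.22, adjusted p = 4.0e-04), Trim30a -2.40 (SE 0.23, adjusted p = 1.6e-04), Rtp4 -3.11 (SE 0.27, adjusted p = 1.1e-04), Oasl2 -3.35 (SE 0.25, adjusted p = 4.8e-05), Xaf1 -3.37 (SE 0.27, adjusted p = 8.2e-05), Ifit3 -3.54 (SE 0.41, adjusted p = 6.6e-04) and Ifi44 -4.76 (SE 0.54, adjusted p = 6.5e-04). The median difference was -1.55 over the members and 0.002 over all genes. Ifi44 for example had a genotype effect of -0.71 in microglia and 4.05 in astrocytes.

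This count depended on the libraries and the fit. It was 12 without SOD1 LPS replicate 3, 4 without SOD1 activated replicate 1, WT LPS replicate 1 or WT activated replicate 1, and 3 without SOD1 activated replicate 3, WT LPS replicate 2, WT LPS replicate 3 or WT activated replicate 3. Limma without the intensity trend called 0, quantile normalization gave 18 and DESeq2 gave 22, for which no shares of all genes are given. Members with large differences that were not called included Ddx60 -4.09 (SE 0.70, adjusted p = 0.0121), Mx2 -4.05 (SE 0.64, adjusted p = 0.00694), Ifit1 -3.24 (SE 0.45, adjusted p = 0.00326) and Rsad2 -3.03 (SE 0.59, adjusted p = 0.0319), then Isg15 -2.87 (SE 0.41, adjusted p = 0.00364), Mx1 -2.66 (SE 0.63, adjusted p = 0.0872), Irgm2 -2.19 (SE 0.40, adjusted p = 0.0218) and Parp14 -1.71 (SE 0.26, adjusted p = 0.00559), and Helz2 -1.55 (SE 0.43, adjusted p = 0.153), Lgals3bp -1.59 (SE 0.20, adjusted p = 0.00134) and Ifi204 -1.28 (SE 0.34, adjusted p = 0.131). The highest were Epsti1 0.62 (SE 0.65, adjusted p = 0.747), Sp100 -0.03 (SE 0.60, adjusted p = 0.9903) and Oas3 -0.06 (SE 0.57, adjusted p = 0.9802), and the remaining named members had Ifitm1 -0.10 (SE 0.64, adjusted p = 0.967), Ifi203 -0.23 (SE 0.76, adjusted p = 0.928), Ifitm3 -1.08 (SE 0.22, adjusted p = 0.0481) and Slfn2 -0.64 (SE 0.31, adjusted p = 0.448), and Ly6e -0.63 (SE 0.23, adjusted p = 0.302) and Ifi35 -1.02 (SE 0.49, adjusted p = 0.452).

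A list of 30 further genes of the pathway covered interferons and receptors, kinases, transcription factors, inhibitors and sensors. In LPS against quiescent WT microglia 15 of 29 tested were higher and 2 lower, against 10.2% and 10.6% of all genes. In activated against quiescent WT astrocytes 9 of 28 were higher and 0 lower, against 6% and 5.54% of all genes. In WT quiescent microglia against astrocytes 22 of 28 were higher and 0 lower, against 22.5% and 24.8% of all genes.

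Ifnb1, the gene of interferon-β, was too low to be tested in any comparison. Usp18, an inhibitor that removes Isg15 from proteins, had 27.4, 18.5 and 19.2 normalized counts in WT and 199, 163 and 177 in SOD1 activated libraries. The genotypes did not overlap, at 3.01 (SE 0.17, adjusted p = 2.3e-10). The RNA sensors Ddx58 and Ifih1 and the transcription factors Irf9 and Irf7 were also higher in SOD1 cultures, with log2 fold changes of Ifih1 1.57 (SE 0.17, adjusted p = 2.0e-06), Irf9 1.45 (SE 0.10, adjusted p = 4.1e-09), Ddx58 1.44 (SE 0.12, adjusted p = 7.2e-08) and Irf7 1.27 (SE 0.18, adjusted p = 6.5e-05). The interferon receptor genes gave Ifnar1 0.03 (SE 0.06, adjusted p = 0.836) and Ifnar2 -0.17 (SE 0.08, adjusted p = 0.205) there. In LPS microglia the largest of the transcription factors was Irf7, which rose from 346, 316 and 326 to 16242, 14964 and 13949 normalized counts, at 5.51 (SE 0.08, adjusted p = 2.2e-11). Tmem173, the adaptor STING, and the receptor gene Ifngr1 were the pathway genes that LPS lowered, with log2 fold changes of Tmem173 -1.82 (SE 0.11, adjusted p = 2.7e-07) and Ifngr1 -1.27 (SE 0.10, adjusted p = 1.6e-06). In WT activated astrocytes Irf1 was the largest transcription factor response, at 2.45 (SE 0.17, adjusted p = 8.8e-07), while Irf7 was not called, at 0.48 (SE 0.25, adjusted p = 0.166).

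All 55 members were placed in the GENCODE M21 annotation of GRCm38, and 54 were annotated as coding, while Mx2 is listed as a polymorphic pseudogene in this strain's reference. In 8 clusters, with neighbouring members less than 100000 bases apart, lay 20 of the members. The IFIT cluster at chr19:34550694-34650009 held Ifit2, Ifit3 and Ifit1, and the IFITM cluster at chr7:140954837-141010770 held Ifitm2, Ifitm1 and Ifitm3. Other clusters were the Slfn genes at chr11:82951349-83070678, Rsad2 with Cmpk2 at chr12:26442746-26479837, Parp14 with Dtx3l and Parp9 at chr16:35832874-35972605, and Mx1 with Mx2 at chr16:97447035-97560900.

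Promoters of RefSeq on GRCm38.p6, from 250 bases before to 50 after a gene's start, were found for 44 of the 55 members, in 58 windows. The ISRE core, GAAANNGAA or TTCNNTTTC on the other strand, was in 23 of the 58 member windows (39.7%) and in 8.56% of all 32851 windows. By gene it was in 21 of 44 members (47.7%) and 9.76% of 27025 genes, and 12 members held at least 2 matches within 1 window. The GAS element TTCNNNGAA, which reads the same on both strands, was in 10 member windows (17.2%), against 8.30% of all, and the kappaB letters GGANTTTCC or GGAAANTCC on the other strand were in 1 (1.72%), against 1.25%. ISRE and GAS matches stood together in 6 windows and shared letters in 4. A match describes these letters and not a bound site.

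The stretches around the ISRE cores of 7 members are printed to show the element in genes that led the LPS response (Rsad2, Isg15, Ifit1), the SOD1 difference in activated astrocytes (Ifit3, Ddx60), a called gene of both (Bst2) and the WT activation response (Ifitm2). They were chosen after the values had been seen, among genes with a match. No match was found for other leading genes, among them Oasl1, Mx1, Oasl2, Mx2 and Rtp4, some of which may lack a promoter window. Each runs 5′ to 3′ on the gene's own strand with ISRE core letters in capitals, and all lie upstream of the start, in order at chr12:26456538-26456596 (minus strand), chr4:156200851-156200921 (minus), chr19:34640755-34640838 (plus), chr19:34583349-34583460 (plus), chr8:61928009-61928086 (plus), chr8:71537563-71537627 (minus) and chr7:140955974-140956032 (minus) of GRCm38.p6.
Rsad2: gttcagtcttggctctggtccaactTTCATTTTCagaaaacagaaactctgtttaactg
Isg15: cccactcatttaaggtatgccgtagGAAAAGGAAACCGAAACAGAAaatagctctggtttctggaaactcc
Ifit1: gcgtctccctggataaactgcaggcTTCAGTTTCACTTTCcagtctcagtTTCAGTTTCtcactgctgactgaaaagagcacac
Ifit3: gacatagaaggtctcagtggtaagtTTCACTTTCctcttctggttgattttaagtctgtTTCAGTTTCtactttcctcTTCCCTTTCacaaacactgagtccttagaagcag
Ddx60: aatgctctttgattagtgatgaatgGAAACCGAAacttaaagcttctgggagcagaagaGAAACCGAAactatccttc
Bst2: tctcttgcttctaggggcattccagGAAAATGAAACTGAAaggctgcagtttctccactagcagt
Ifitm2: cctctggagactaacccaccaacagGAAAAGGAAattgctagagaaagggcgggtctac
Isg15, Ifit1 and Ifit3 held 3 core matches each, Ddx60 and Bst2 held 2, and Rsad2 and Ifitm2 held 1. In Isg15 the matches overlap and form a single run of letters.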

How the data were processed

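The authors aligned reads to mm10 with STAR, counted them with RSEM and deposited, in 6 tables, normalized counts per gene and library (a signal in units of reads divided by DESeq2 size factors). The fold changes and p-values of the authors' own comparisons in those tables were not used. Whole reads were recovered for 100% of values (tolerance 0.1 reads) and gave depths of 2016139 to 11570122 reads.

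The tables were normalized separately, so each of the 6 deposited comparisons was fitted within its own table, and the 5 that cross tables were fitted on recovered reads scaled together by median of ratios. Genes averaging 10 or more normalized counts were tested with limma 3.58.1 (intensity trend) in R 4.3.3. The pseudocount was 1 and adjustment was by Benjamini-Hochberg, with calls at adjusted p under 0.001 and more than 2-fold change. The procedure was also run on simulated reads with a common spread, no outlying library and changes well above 2-fold. That run does not bear on outlying libraries or on calls near the fold limit. Some members reached the average of 10 through the higher group alone. Examples were Uba7 at rest, Ifi44 and Ddx60 in SOD1 activation, and Ddx60 and Mx2 by genotype. Another was Mx1 in the comparison of microglia and astrocyte responses, through the microglia libraries. The fits used no covariate. Groups with 0 reads were given a floor of 3 reads per library, and intervals are 95% exact.

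Alternatives were other pseudocounts, filters, scalings and call limits, limma without trend, a replicate block, the library total as a covariate, each library left out, and DESeq2 1.42.0 and edgeR 4.0.16 on the recovered reads. For SOD1 against WT activated astrocytes DESeq2 and edgeR each called 26 members. The genotype effect in LPS microglia against that in activated astrocytes, and the check of LPS response genes outside the list, were added after the values had been seen. Identity was checked with lists for astrocytes, microglia, peripheral myeloid cells, oligodendrocyte lineage, endothelial cells, pericytes with fibroblasts, and neurons. The members, the 17 families, the marker lists and the pathway list were chosen with earlier results of these data known. Full statistics are given, per comparison, for the 5 largest and 3 lowest members, each member called against the majority, every called member where at most 10 were called, and the most abundant member of each family. Other genes named singly, such as Rtp4, Isg15 and Ifitm3 by genotype, Ifit1 and Ifit3 in WT activation and the pathway genes, were chosen after their values were seen. Positions come from GENCODE M21. The 21 replicate pairs of a group differed by more than sampling noise, with chi-square per degree of freedom of 1.50 to 21.7.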

Additional observations from a re-analysis of the deposited data

Results flagged for a closer look

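The response of WT microglia to LPS and that of WT astrocytes to the 3 factors differed by a test of the difference itself. There 35 members responded more in microglia and 1 more in astrocytes, against 6.73% and 8.44% of 12334 genes. The log2 differences were 6.63 for Oasl1, 6.01 for Rsad2, 5.79 for Ifit2, 5.70 for Mx1, 5.17 for Cmpk2 and -2.52 for Ifi27. Mx1 was too low to be tested in WT astrocytes alone, so its difference and rank are uncertain.

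The difference between SOD1 and WT libraries in LPS microglia and that in activated astrocytes also differed by such a test. There 7 members had a lower genotype effect in microglia and 0 a higher, against 0.124% and 0.00825% of 12122 genes. Their log2 differences were -2.05 for Trim25, -2.40 for Trim30a, -3.11 for Rtp4, -3.35 for Oasl2, -3.37 for Xaf1, -3.54 for Ifit3 and -4.76 for Ifi44. This test was added after the values had been seen. Its count was 0 without the intensity trend, 3 with a replicate block and 3 to 12 with 1 library left out. Treatment and cell type differ together in both tests.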

How the results depend on the processing

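Over 5052 values of 245 results, 4742 kept their direction and side of the limit, 139 became stronger, 48 reversed and the others became weaker. None of the reversed results was a called one, and the largest had a log2 fold change of 0.73. The cause was not tested.

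Members called in activated against quiescent WT astrocytes numbered 15, and 25 at adjusted p under 0.05 at any fold change, 8 by limma without trend and 5 to 17 with 1 library left out. In SOD1 against WT activated astrocytes the 25 became 0 by limma without trend, and in quiescent microglia against astrocytes the 45 became 29 with at least 10 counts in every library. For the activation response of SOD1 against WT astrocytes the 0 became 11 by DESeq2, 13 at adjusted p under 0.05 with or without the fold limit, 14 with the library total as covariate, 1 with a pseudocount of 5 and 0 to 1 with 1 library left out. For the genotype effect in microglia against that in astrocytes the 7 became 22 by DESeq2, 24 at adjusted p under 0.05 with or without the fold limit, 13 with the library total, 0 without trend, 18 by quantile normalization and 3 to 12 with 1 library left out. These counts show how each result depends on the fit, not how members compare with all genes.

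With the replicate number as a block, calls in that last comparison numbered 3, and no other count moved by more than 1.5 times. Correlations of same-numbered libraries ran from -0.436 to 0.0587 and in no comparison were all above 0.1, so the libraries were not treated as pairs. Such correlations cannot show whether same-numbered libraries shared a preparation.

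With 1 library left out, log2 fold changes ranged as follows in SOD1 against WT quiescent astrocytes: Samhd1 -0.29 to 0.00119, Ifitm2 -0.13 to 0.17, Parp11 -0.0366 to 0.16, Slfn2 -0.0390 to 1.07 and Nmi -0.0666 to 0.10, with Nmi 0.0213 under the library total. In activated against quiescent WT astrocytes Herc6 ran from -0.0327 to 0.26, Slfn2 from -0.11 to 0.98 and Pml from -0.0418 to 0.18, with Pml -0.0133 under the library total. In SOD1 against WT activated astrocytes Ifitm2 ran from -0.10 to 0.0534 and was 0.0507 under the library total, and in LPS microglia Shisa5 ran from -0.13 to 0.0139. Under quantile normalization the difference between the responses of microglia and astrocytes was -0.54 for Ifitm3 and -0.0313 for Xaf1. For the activation response by genotype Ifitm2 ran from -0.20 to 0.10 and Ifi204 from -0.0284 to 0.48.

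For the genotype effect in microglia against that in astrocytes, leaving 1 library out gave Oas3 -0.43 to 0.45, Ifitm1 -0.42 to 0.55, Sp100 -0.50 to 0.59, Epsti1 -0.0462 to 1.16, Ifi203 -0.69 to 0.41 and Ifi35 -1.31 to -0.52. DESeq2 gave Oas3 0.0699, Ifitm1 0.338 and Sp100 0.0152, and edgeR gave 0.1196, 0.392 and 0.0651. Sp100 was 0.0133 under TMM scaling, 0.0102 under a pseudocount of 0.5 and 0.29 with the library total, where Epsti1 was -0.32.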
